A study of Mus musculus with 109 samples.

Results

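Brain microglia that lacked the interleukin 10 (IL-10) receptor alpha chain were compared with floxed controls 6 h after a peripheral dose of lipopolysaccharide (LPS). The libraries were chosen by their labels: 7 libraries of Il10ra mutants (CX3CR1-CreER:IL10Rafl/fl) and 6 libraries of controls (IL10Rafl/fl, no Cre in the label), in all 13 of the 89 RNA libraries of the series. All mice of these groups carried floxed Il10ra alleles and received 2.5 mg/kg LPS into the peritoneum. The cells were microglia isolated from brain by a flow cytometric sort for CD45 and CD11b, and RNA was measured as 3′ tag libraries made by MARS-seq. The Cre of the mutants is driven by Cx3cr1, so that deletion is possible in any cell that expresses this gene and not in microglia alone. The labels used here give no age, sex or date of Cre induction. They do not say whether libraries came from separate mice, so that the p-values below measure the spread between these libraries, which may be technical in part. Further libraries of the same 2 genotypes were used for context: without LPS (9 mutant, 6 control), at 24 h (5 mutant, 4 control) and at 48 h (5 mutant, 6 control). A separate set at 6 h held 6 libraries of double mutants, which lacked Tnf as well as Il10ra, and 5 libraries of controls floxed for both genes.

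IL-10 is a cytokine that restrains inflammatory gene expression in macrophages. It binds a receptor made of the alpha chain Il10ra, which gives specificity, and the shared beta chain Il10rb, and the receptor acts through the kinases JAK1 and TYK2 and the transcription factor STAT3. LPS is sensed by Toll-like receptor 4 and drives inflammatory genes mainly through NF-kB and interferon regulatory factors, and in macrophages STAT3 activated by IL-10 lowers the output of many of these genes.

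Normalised reads per gene are the unit of all levels below. The libraries held 609941 to 1335776 reads in mutants and 685988 to 1171432 reads in controls, a difference of 60950 reads in the means (exact permutation test over libraries, two-sided, p = 0.654, adjusted p = 0.81 over 15 measures). The defining markers of microglia, 11 genes that include Siglech and P2ry12, summed to 35340 ± 2920 normalised reads in mutants and 33740 ± 3021 in controls (SD, n = 7 and 6), and all 11 were in the table. None of the tested markers of neutrophils (11), monocytes (10), border macrophages (8), lymphocytes (2), astrocytes (3), oligodendrocytes (5), neurons (3), endothelial and mural cells (2) or erythroid cells (4) was called at 6 h. Of the 13 neutrophil markers with values, 1 (the granule gene Mpo) was at 0 in all 13 libraries. Only 5 of 15 lymphocyte markers had values, and 2 of them (the T cell genes Cd3e and Cd4) were at 0 throughout. Summed neutrophil markers ran from 241.6 to 4799 in mutants and from 458.0 to 1652 in controls. Summed lymphocyte markers ran from 8.01 to 26.75 in mutants and from 11.82 to 23.05 in controls.

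A mutant library and 2 controls stood apart. Mutant library 5 had the highest mitochondrial-encoded share of reads (1.80%) and the lowest median correlation with the other mutants across genes (0.8963, against 0.9131 to 0.9445 in the others), and it was the most extreme mutant in the direction of the call in 223 of the 382 genes called below (58.4%), compared with 34.2% of all genes tested. Controls 1 and 3 had mitochondrial shares of 0.0512% and 0.247%, while the other 4 controls had 0.764% to 1.04%. Over the groups the mitochondrial share was 1.092 ± 0.3878% in mutants and 0.6565 ± 0.4072% in controls (SD, n = 7 and 6; exact permutation test, two-sided, p = 0.0746, p = 0.05 within experiments, adjusted p = 0.559 over 15 measures). Its part in the results was not tested. Each call was therefore also made without mutant library 5 and without these 2 controls, and for the genes named below the calls lost in either fit are given.

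**Figure D1:**
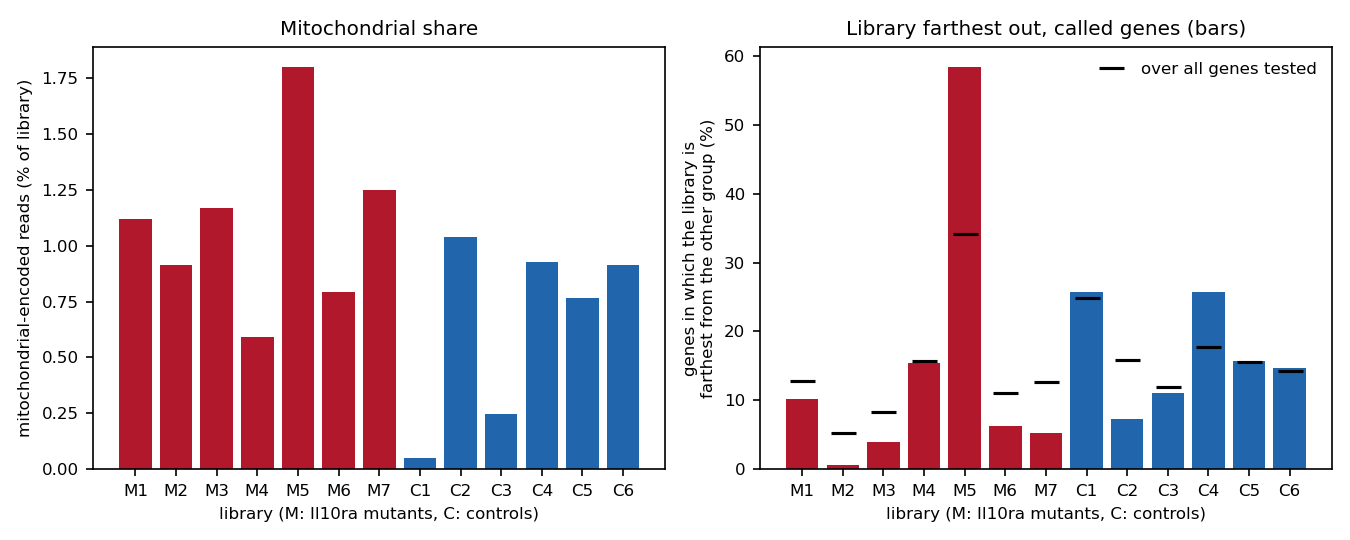
Left, mitochondrial-encoded reads as a percentage of each library (bars), for the 7 Il10ra mutant libraries (M, red) and the 6 control libraries (C, blue). Right, the percentage of the 382 called genes in which a library was the most extreme of its own group in the direction of the call (bars), with the same over all genes tested (black dashes). Mutant library 5 reaches 58.4% against 34.2% over all genes, and controls 1 and 3 have the lowest mitochondrial shares.

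The targeted gene was low in every mutant library. Il10ra had a lowest, median and highest value of 27.98, 50.37 and 61.26 normalised reads in the 7 mutants, against 268.5, 346.0 and 580.3 in the 6 controls. The groups were far apart, with every mutant below every control. The difference was log2 -2.94 ± 0.26 (± SE, adjusted p = 3.10e-11), from limma on log2(value + 1) over the 48 libraries of the Il10ra mutant table with the experiment of each column label as a covariate, and Benjamini-Hochberg adjustment over all genes tested. It was the same fit that gave each log2 difference and adjusted p below unless another is named. In bulk libraries a lower level per cell and fewer expressing cells cannot be told apart. The difference was -3.51 within the experiment labelled AS_2nd_exp (4 mutants, 3 controls) and -2.31 within the experiment labelled Anat_LPSchallenged (3 mutants, 3 controls). Cx3cr1, the fractalkine receptor gene whose locus carries the CreER insertion in this mouse line, had 933.0, 1182 and 1458 normalised reads in mutants (lowest, median, highest) and 830.9, 2534 and 2676 in controls. All mutants lay below the control median, but the lowest control, library 1, lay below all of them. The fall of Cx3cr1 passed the test (log2 -0.76 ± 0.22, adjusted p = 0.0425) and did not pass without mutant library 5 (adjusted p = 0.0744), while without controls 1 and 3 it was log2 -1.20 (adjusted p = 0.00116).

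At 6 h, 382 of 11555 genes tested were called (3.31%, limma, adjusted p under 0.05), 218 of them higher in mutants (1.89%) and 164 lower (1.42%). The majority turned with the scaling: 44.8% of 277 calls were higher with quantile normalization, and 26.2% of 484 without the mitochondrial-encoded genes, compared with 57.1% here. The fit without these genes also rescaled every library to an equal total, and the effects of leaving out and of rescaling were not separated. The differences were of moderate size. The median absolute log2 difference of the called genes was 0.807, and 117 of them (68 higher, 49 lower) reached an absolute log2 of 1. Most groups overlapped: 16 of the higher and 19 of the lower called genes had no overlap between the 7 mutants and the 6 controls, and over all genes tested 20 (0.173%) and 35 (0.303%) had none, 0.476% together. All 382 had the same sign in both experiments, which an additive fit favours, compared with 61.2% of all genes. The count was far lower in a fit of the 13 libraries alone, which called 27 of 9657 genes (0.28%), of which 22 were among the 382. That fit does not borrow the spread of the other groups and also filters genes on fewer libraries. With edgeR the 13 libraries alone gave 1.28% of genes. Which of these differences lowered the count was not tested. Without mutant library 5 the count was 66, with 63 of the 382 retained (39 higher, 24 lower). Without controls 1 and 3 it was 372, with 201 retained (110 higher, 91 lower), and 51 genes (32 higher, 19 lower) were retained in both.

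**Figure D2:**
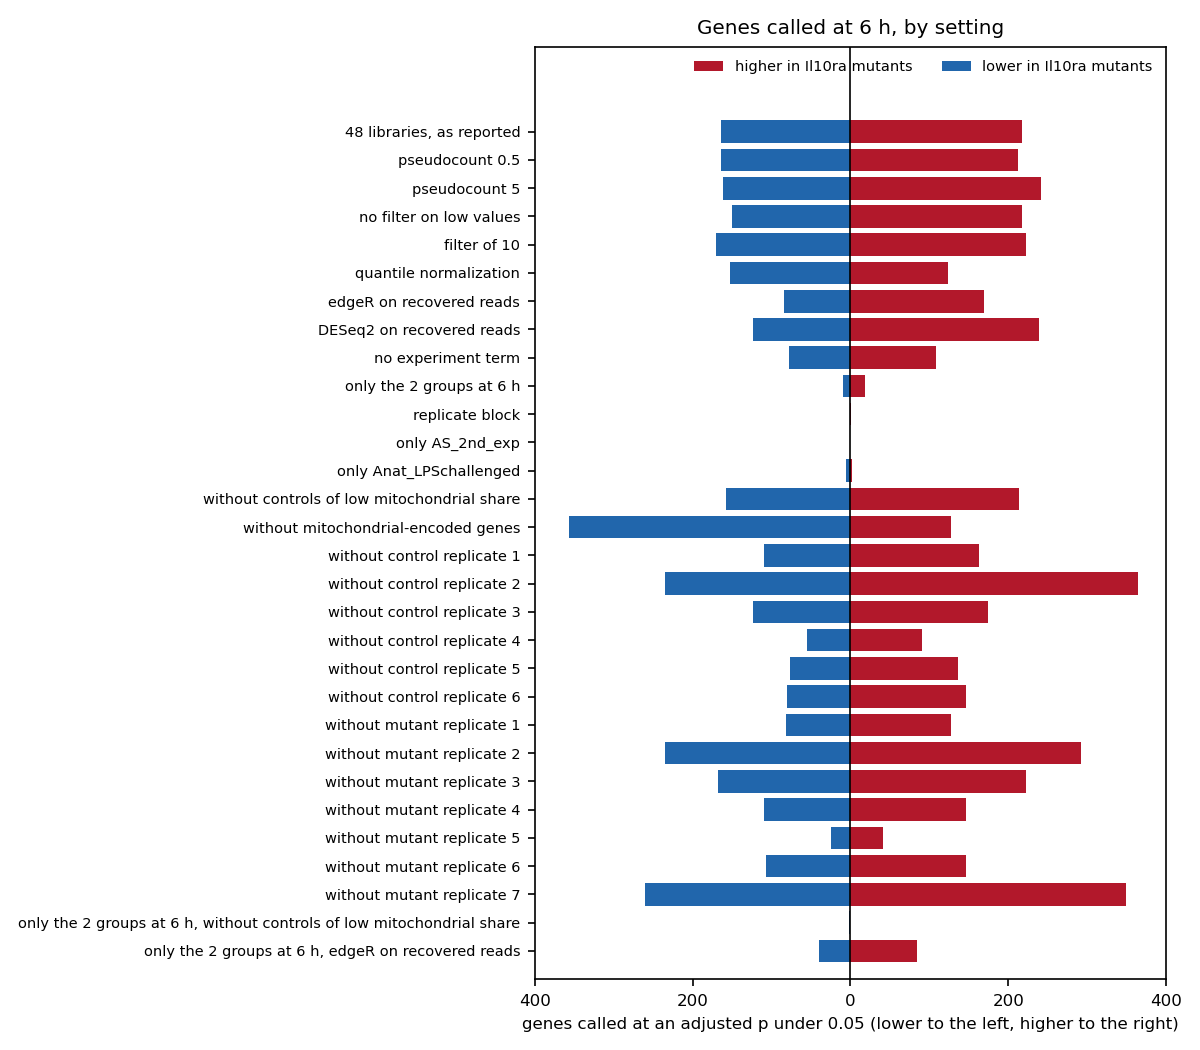
Number of genes called at an adjusted p under 0.05 at 6 h under each setting, with genes higher in Il10ra mutants to the right (red) and lower to the left (blue). The top bar is the fit reported here (218 higher, 164 lower), and the bars range from 1 gene within AS_2nd_exp to 609 genes without mutant library 7.

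In all, 12 genes were called in the fit of 48 libraries, without mutant library 5, without controls 1 and 3, and in the 13 libraries alone. Of these, 6 were higher in mutants (Tlr13, Zbtb20, Prune2, Ninj1, Baz2b and Gm12630) and 6 lower (Il10ra, Ankrd37, Dolpp1, Rab32, Slc25a45 and Tpi1). In the 13 libraries alone (limma) Il10ra and Prune2 had an adjusted p of 1.14e-07 and 0.0331. The others shared 1 tied adjusted p of 0.0471, just inside the threshold. The same fit without controls 1 and 3 called 2 genes, both lower in mutants, so none of the 6 rises was called there. Tlr13, the endosomal receptor for bacterial ribosomal RNA, had 423.5, 666.2 and 953.2 normalised reads in mutants (lowest, median, highest) and 206.5, 312.1 and 663.6 in controls. Every mutant lay above the control median and 4 of 7 above the highest control. Its rise was log2 0.91 ± 0.14 (adjusted p = 0.000442), the lowest p among the genes that rose, and 0.82 and 0.99 within the 2 experiments. Ninj1, a membrane protein needed for the rupture of the plasma membrane in lytic cell death, had 237.6, 443.3 and 580.3 normalised reads in mutants and 154.8, 223.0 and 347.2 in controls (log2 0.80 ± 0.15, adjusted p = 0.00539), so that the groups overlapped only between the 2 lowest mutants and the highest controls.

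Zbtb20, a zinc finger transcriptional repressor, had 39.29, 51.96 and 81.08 normalised reads in mutants and 17.20, 26.57 and 37.62 in controls. No mutant reached down to the highest control (log2 0.98 ± 0.17, adjusted p = 0.00261). Prune2 had no overlap either, with a median of 125.9 and a highest value of 210.8 normalised reads in mutants, all of them above the highest control, and 41.09, 69.91 and 94.06 in controls (log2 1.02 ± 0.19, adjusted p = 0.00485). Baz2b, a bromodomain protein of chromatin, was less separated, at 89.44, 111.9 and 198.2 normalised reads in mutants and 58.13, 71.27 and 105.6 in controls (log2 0.72 ± 0.14, adjusted p = 0.00561). Mutant library 5 gave the highest value of Zbtb20, Prune2 and Baz2b, and without it their differences were log2 0.87, 0.90 and 0.63. Gm12630, a predicted gene, was at 6.687, 16.66 and 43.24 normalised reads in mutants and 0, 2.657 and 11.03 in controls (log2 2.52 ± 0.56, adjusted p = 0.00957), a level of few reads. The values of Gm12630 and Rab32 were seen before these genes were chosen for description.

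Among the genes that fell, Rab32, a small GTPase of vesicle traffic to lysosome-related organelles, had 77.48, 141.9 and 185.6 normalised reads in mutants and 191.5, 257.7 and 338.4 in controls, with no overlap (log2 -0.97 ± 0.21, adjusted p = 0.00836). Slc25a45, a member of the mitochondrial carrier family, had 36.04, 51.96 and 86.94 normalised reads in mutants and 88.93, 128.3 and 147.3 in controls, again with every mutant below every control (log2 -1.13 ± 0.25, adjusted p = 0.00957). Tpi1, the glycolytic triosephosphate isomerase, had 104.9, 130.5 and 179.0 normalised reads in mutants and 123.1, 259.4 and 395.7 in controls (log2 -0.83 ± 0.17, adjusted p = 0.00561). For this gene the mutants were alike, and the controls of Anat_LPSchallenged were the high ones: the difference was log2 -0.44 within AS_2nd_exp and -1.24 within Anat_LPSchallenged. Ankrd37, an ankyrin repeat gene known to be induced by hypoxia, had 2.777, 4.551 and 9.195 normalised reads in mutants and 11.03, 16.59 and 33.26 in controls, with no overlap (log2 -1.59 ± 0.34, adjusted p = 0.00836). Dolpp1, a phosphatase that recycles the dolichol carrier of protein glycosylation, had 12.61, 22.98 and 43.47 normalised reads in mutants and 40.14, 47.68 and 69.12 in controls (log2 -1.07 ± 0.22, adjusted p = 0.00588).

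**Figure D3:**
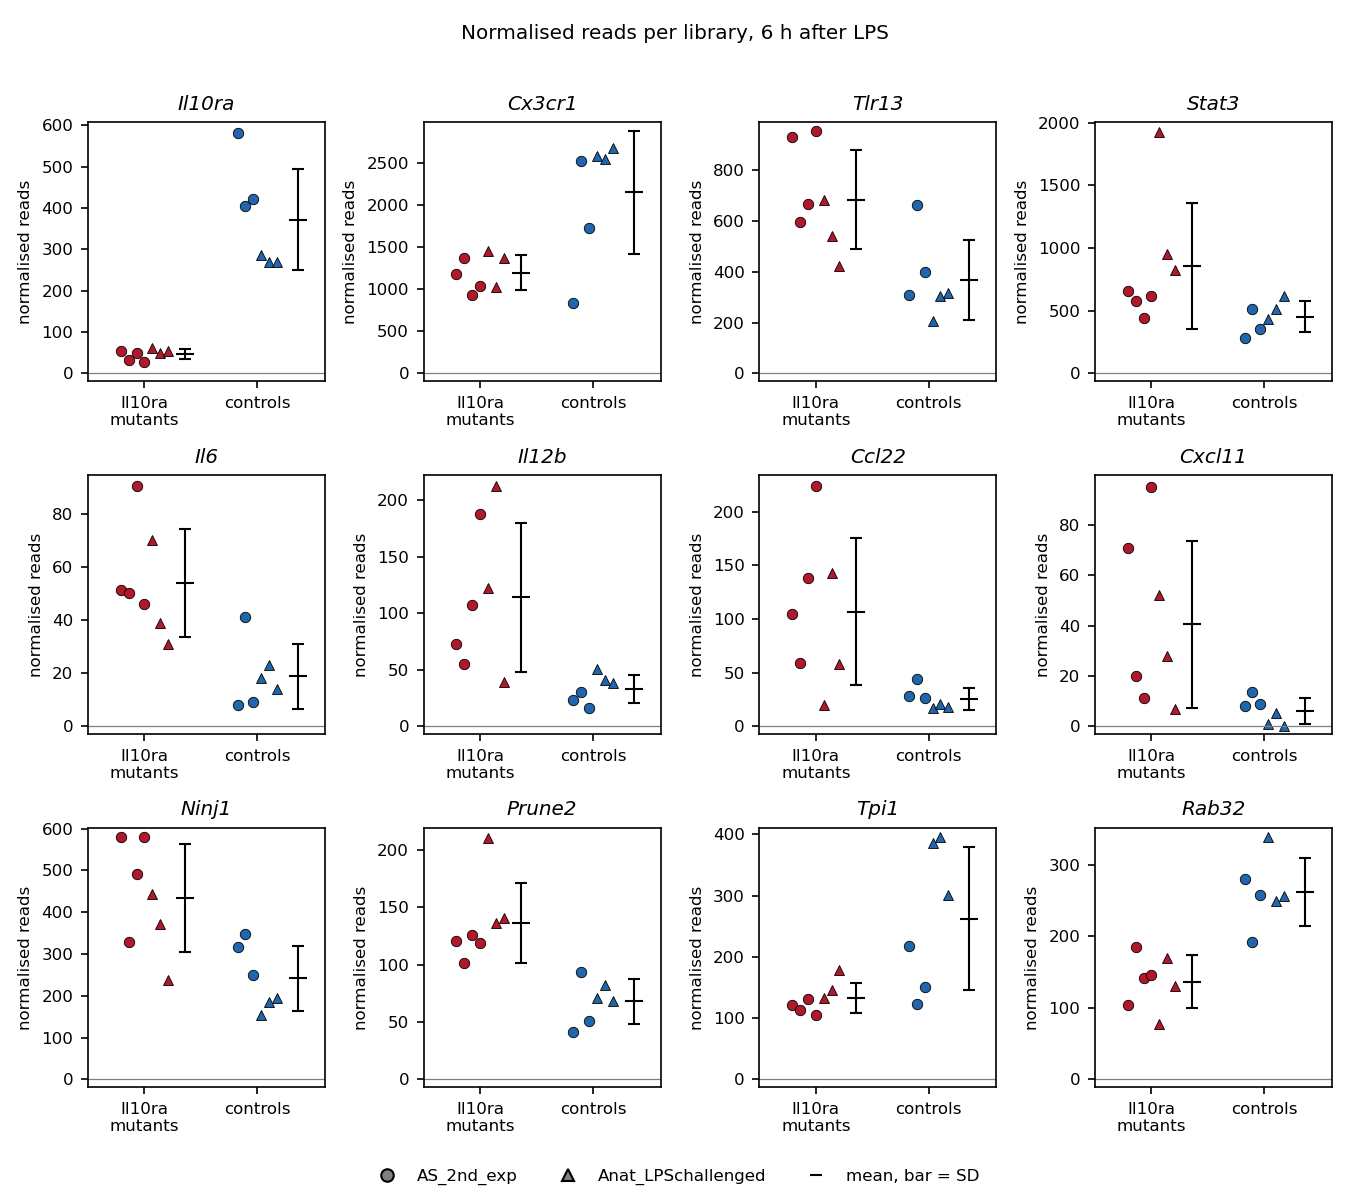
Normalised reads of 12 genes in each library 6 h after LPS, with the 7 Il10ra mutants (red) left of the 6 controls (blue). Circles are libraries of AS_2nd_exp and triangles libraries of Anat_LPSchallenged, and the black mark and bar give the mean and SD of the group. Il10ra, Prune2 and Rab32 do not overlap between the groups, while a single control reaches into the range of the mutants for Tlr13 and Il6 and 1 control lies below all mutants for Cx3cr1.

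Among secreted signals, 2 of 17 tested inflammatory cytokines rose and none fell, and 3 of 20 CC and CXC chemokines rose and none fell, where 1.89% of all genes rose. The median log2 difference was 0.446 over the cytokines and 0.464 over the chemokines, compared with 0.0208 over all genes tested. Without LPS the same medians were already 0.235 and 0.322, compared with 0.00944 over all genes. The cytokines were Il6, the pleiotropic interleukin 6, and Il12b, the shared p40 subunit of IL-12 and IL-23. Il6 had 30.98, 50.16 and 90.43 normalised reads in mutants (lowest, median, highest) and 8.018, 16.17 and 41.04 in controls. All mutants were above the control median, and 5 of 7 were above the highest control. The rise of log2 1.56 ± 0.40 (adjusted p = 0.0208) was log2 1.43 without mutant library 5 (adjusted p = 0.0821) and 0.94 without controls 1 and 3 (adjusted p = 0.212), so that it passed neither. Il12b had 39.59, 107.6 and 212.4 normalised reads in mutants and 16.37, 34.48 and 50.47 in controls, and 6 of 7 mutants exceeded the highest control (log2 1.64 ± 0.49, adjusted p = 0.0471). It too did not pass without mutant library 5 (log2 1.62, adjusted p = 0.12) or without controls 1 and 3 (log2 1.37, adjusted p = 0.161). Both genes were called in the 13 libraries alone (adjusted p = 0.0471 for each).

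The chemokines that rose were Ccl22, a ligand of CCR4, Cxcl11, a ligand of CXCR3, and Cxcl3, a ligand of the neutrophil receptor CXCR2. Ccl22 had 19.82, 104.7 and 223.8 normalised reads in mutants and 17.20, 23.53 and 44.46 in controls (log2 1.71 ± 0.44, adjusted p = 0.0237). In 6 of 7 mutants the value exceeded the highest control, and the remaining one lay within the controls. The rise was log2 2.00 without mutant library 5 (adjusted p = 0.029) and 1.56 without controls 1 and 3 (adjusted p = 0.0778). Cxcl11 spread widely in mutants, at 6.886, 27.77 and 94.93 normalised reads, and had 0, 6.595 and 13.68 in controls (log2 2.50 ± 0.51, adjusted p = 0.00588). It passed without mutant library 5 (adjusted p = 0.0323) and without controls 1 and 3 (adjusted p = 0.00755), and missed the threshold in the 13 libraries alone (adjusted p = 0.051). Cxcl3 was low, at 1.672, 6.827 and 24.98 normalised reads in mutants and 0, 1.220 and 4.548 in controls (log2 1.59 ± 0.36, adjusted p = 0.0101). Cxcl10, a further CXCR3 ligand, had 562.9, 4436 and 13770 normalised reads in mutants and 427.8, 1242 and 2875 in controls, with 6 of 7 mutants above the highest control, and did not pass (log2 1.78 ± 0.58, adjusted p = 0.0698). Tnf, which encodes tumour necrosis factor, had 182.5, 876.1 and 1416 normalised reads in mutants and 355.0, 562.3 and 1085 in controls, with a log2 difference of 0.09 ± 0.37 (adjusted p = 0.928) and opposite signs in the 2 experiments (0.39 and -0.38).

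Of 24 genes of IL-10 receptor and JAK-STAT signalling, Stat3 and Cish rose and Il10ra fell, where 1.89% of all genes rose and 1.42% fell. The median log2 difference of the list was 0.182. Stat3, the transcription factor downstream of the IL-10 receptor, had 441.9, 655.4 and 1924 normalised reads in mutants and 284.7, 475.8 and 619.6 in controls. The highest value was that of mutant library 5, and 5 of 7 mutants exceeded the highest control. The difference of log2 0.84 ± 0.17 (adjusted p = 0.00561) was 0.65 without that library (adjusted p = 0.029) and 0.73 without controls 1 and 3 (adjusted p = 0.0235), and the 13 libraries alone gave an adjusted p of 0.051. Cish, an inhibitor of the SOCS family induced by STAT5, had 15.49, 55.54 and 191.8 normalised reads in mutants and 4.588, 11.58 and 39.09 in controls (log2 1.93 ± 0.48, adjusted p = 0.0182), and did not pass without mutant library 5 (adjusted p = 0.0807). Socs3, the classic STAT3-induced inhibitor of the same family, had 1246, 2142 and 3305 normalised reads in mutants and 1296, 1699 and 3265 in controls, so that both groups covered the same range (log2 0.20 ± 0.26, adjusted p = 0.718).

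In the list of the IL-10 and STAT3 response none of 27 tested genes was called, and their median log2 difference was 0.0393. Of the 27, 6 had an unadjusted p under 0.05 (limma), near the share of 19.7% over all genes tested. The genes of low p in this list included Saa3, Il21r and Etv3. Saa3, an acute phase protein, had 43.24, 369.5 and 971.9 normalised reads in mutants and 523.3, 678.0 and 1534 in controls. Its difference lay mainly in 1 experiment, with log2 -0.14 in AS_2nd_exp and -2.57 in Anat_LPSchallenged (adjusted p = 0.15). The ligand itself was hardly detected: Il10 had 0, 1.138 and 4.579 normalised reads in mutants and 0, 0 and 1.710 in controls (log2 0.68 ± 0.46, adjusted p = 0.428).

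In the machinery of LPS sensing, 3 of 20 NF-kB subunits and inhibitors rose (Nfkb2, Rela and Tnip2) and none fell, where 1.89% of all genes rose. Of the 20 differences 18 were positive, compared with 6059 of 11555 over all genes tested. The median log2 was 0.395 at 6 h and 0.0573 without LPS. Rela, the transactivating p65 subunit, had 168.7, 268.3 and 381.7 normalised reads in mutants and 146.1, 184.3 and 246.3 in controls (log2 0.53 ± 0.14, adjusted p = 0.0215). Nfkb2, the precursor of the p52 subunit, had 208.3, 401.2 and 560.6 normalised reads in mutants and 179.7, 229.1 and 388.2 in controls (log2 0.64 ± 0.19, adjusted p = 0.0441). Tnip2, a ubiquitin-binding regulator of NF-kB signalling, had 134.3, 204.1 and 425.2 normalised reads in mutants and 82.58, 119.9 and 203.5 in controls (log2 0.82 ± 0.19, adjusted p = 0.0129). The groups overlapped for all 3, with 4 of 7 mutants above the highest control each time, and none of the 3 passed without mutant library 5 (adjusted p = 0.109, 0.15 and 0.0757 for Rela, Nfkb2 and Tnip2). Nfkb2 did not pass without controls 1 and 3 either (adjusted p = 0.198). Of 22 Toll-like receptors and adaptors, Tlr13 (above) and Tirap rose, and the median log2 was 0.121. Tirap, the adaptor that brings MYD88 to TLR2 and TLR4, had 101.9, 136.9 and 150.2 normalised reads in mutants and 65.15, 88.37 and 143.7 in controls (log2 0.55 ± 0.15, adjusted p = 0.03), and passed neither without mutant library 5 (adjusted p = 0.0883) nor without controls 1 and 3 (adjusted p = 0.111). For Tlr7, an endosomal receptor for single-stranded RNA, mutants ran from 236.8 to 619.8 normalised reads and controls from 22.05 to 425.0, and the log2 difference of 1.19 (adjusted p = 0.0577) was 0.27 without controls 1 and 3.

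Molecules by which microglia contact T cells and other leukocytes had the largest share of calls among the lists. Of 14 costimulatory and adhesion genes 4 rose (Cd86, Icosl, Icam1 and Slamf1) and none fell, where 1.89% of all genes rose. Of the 14, 7 had an unadjusted p under 0.05 (limma), compared with 19.7% of all genes tested. The median log2 was 0.695 at 6 h and 0.0578 without LPS. Cd86, a ligand of CD28 and CTLA-4, had 313.3, 385.8 and 654.1 normalised reads in mutants and 103.2, 234.5 and 359.1 in controls, with all mutants above the control median (log2 0.87 ± 0.20, adjusted p = 0.011). Icosl, the ligand of ICOS, had 103.7, 213.9 and 318.9 normalised reads in mutants and a narrow range of 89.46, 108.7 and 125.5 in controls (log2 0.83 ± 0.19, adjusted p = 0.0129), with 5 mutants above the controls and the other 2 among them. Icam1, the adhesion ligand of LFA-1, had 246.2, 756.7 and 1672 normalised reads in mutants and 256.0, 383.5 and 736.7 in controls (log2 0.71 ± 0.21, adjusted p = 0.0469). Slamf1, a receptor that binds itself on neighbouring cells, had 12.05, 18.32 and 41.44 normalised reads in mutants and 1.293, 6.268 and 18.81 in controls (log2 1.61 ± 0.43, adjusted p = 0.0292). Without mutant library 5 none of the 4 passed, with adjusted p of 0.0559 (Cd86), 0.069 (Icosl), 0.123 (Slamf1) and 0.202 (Icam1), and without controls 1 and 3 Cd86 did not pass (log2 0.55, adjusted p = 0.109).

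Genes of antigen presentation by MHC class I had small differences of 1 sign. All 19 tested genes of MHC class I and the immunoproteasome had positive differences, compared with 6059 of 11555 over all genes. Of the 19, 2 were called higher, where 1.89% of all genes were. The median log2 of the list was 0.29 at 6 h and 0.19 without LPS. Members of a list share the same libraries, so that their signs are not independent. Tap1, the peptide transporter of the endoplasmic reticulum, had 246.2, 551.4 and 1006 normalised reads in mutants and 199.6, 358.1 and 544.3 in controls (log2 0.69 ± 0.20, adjusted p = 0.0415). H2-Q4, a class I heavy chain whose reads may be shared with near-identical copies, had 16.72, 35.97 and 63.07 normalised reads in mutants and 1.002, 16.64 and 27.36 in controls (log2 1.37 ± 0.37, adjusted p = 0.031). Neither Tap1 nor H2-Q4 passed without mutant library 5 (adjusted p = 0.134 and 0.0999), and without controls 1 and 3 the difference of H2-Q4 was log2 0.79 (adjusted p = 0.204). None of 8 MHC class II genes was called. Of 30 interferon response genes none was called and 24 were positive. Their median log2 was 0.288 at 6 h and 0.277 without LPS. Of 10 interferon-inducible GTPases 1 rose, Gbp3, with 44.76, 145.4 and 228.8 normalised reads in mutants and 37.85, 73.18 and 111.2 in controls (log2 0.90 ± 0.24, adjusted p = 0.0315; adjusted p = 0.125 without mutant library 5). The list's median log2 was 0.616 at 6 h and 0.16 without LPS. In the same family Gbp5 had 30.98, 105.8 and 194.6 normalised reads in mutants and 39.44, 50.01 and 71.83 in controls (log2 0.96 ± 0.33, adjusted p = 0.0873). None of 8 IRF transcription factors and none of 14 factors of cytokine mRNA decay was called.

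**Figure D4:**
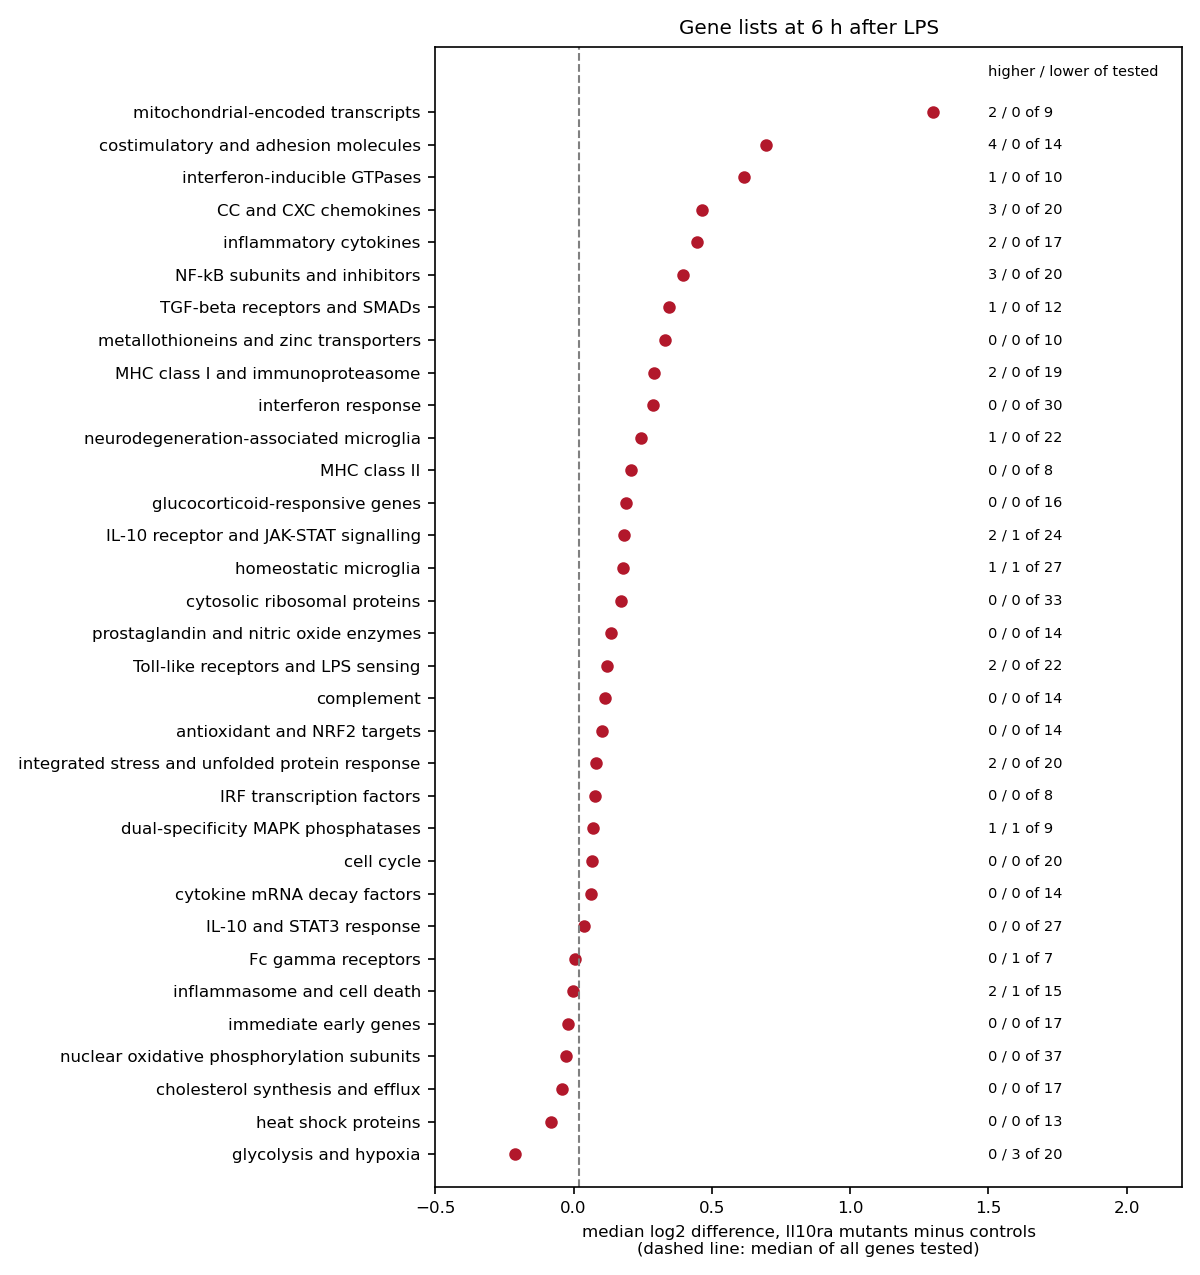
Median log2 difference (Il10ra mutants minus controls, 6 h) over the tested members of each gene list (points), with the median of all genes tested as a dashed line at 0.0208, and the number of members called higher and lower at the right. Costimulatory and adhesion molecules have 4 higher and 0 lower of 14, and glycolysis and hypoxia genes 0 higher and 3 lower of 20. Over all genes tested 1.89% were called higher and 1.42% lower. Members share libraries and are not independent.

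The homeostatic profile of microglia differed at single genes. Of 27 homeostatic genes Tgfbr1 rose and Cx3cr1 fell, and the median log2 was 0.179. Tgfbr1, the signalling chain of the TGF-beta receptor, had 942.1, 1214 and 1685 normalised reads in mutants and 826.9, 933.6 and 971.5 in controls, with 6 of 7 mutants above the highest control (log2 0.52 ± 0.12, adjusted p = 0.0143; adjusted p = 0.0559 without mutant library 5). P2ry12, the purinergic receptor that marks resting microglia, had 565.5, 636.5 and 1544 normalised reads in mutants and 368.8, 497.3 and 665.3 in controls and did not pass (log2 0.58 ± 0.19, adjusted p = 0.07). Of 22 genes associated with microglia in neurodegeneration, Timp2, an inhibitor of metalloproteinases, rose (log2 0.47 ± 0.11, adjusted p = 0.0149; adjusted p = 0.0791 without mutant library 5). Of 7 Fc gamma receptors, Fcgr2b, the inhibitory one, fell, with 356.8, 481.9 and 653.5 normalised reads in mutants and 502.8, 766.0 and 1148 in controls (log2 -0.61 ± 0.17, adjusted p = 0.0354; adjusted p = 0.143 without mutant library 5). Without controls 1 and 3 the difference of Fcgr2b was log2 -0.40 (adjusted p = 0.228). None of 14 complement genes was called.

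Of 15 tested genes of inflammasome and cell death Casp4 and Aim2 rose and Pycard fell, with a median log2 of -0.00241. Over all genes tested 1.89% rose and 1.42% fell. Casp4 encodes the protease that senses cytosolic LPS, known in mice as caspase-11, and it had 146.3, 254.9 and 382.0 normalised reads in mutants and 64.15, 110.3 and 234.3 in controls (log2 1.01 ± 0.25, adjusted p = 0.0189). Aim2, a sensor of cytosolic DNA, had 134.3, 225.2 and 295.8 normalised reads in mutants and 88.32, 131.7 and 176.4 in controls (log2 0.64 ± 0.15, adjusted p = 0.0112). Pycard, the adaptor ASC through which many such sensors recruit caspase-1, had 270.3, 362.9 and 402.7 normalised reads in mutants and 436.6, 506.2 and 592.3 in controls, with every mutant below every control (log2 -0.54 ± 0.15, adjusted p = 0.0416). Without mutant library 5 the adjusted p was 0.0937 for Casp4, 0.0521 for Aim2 and 0.15 for Pycard. Without controls 1 and 3 Aim2 passed, while Casp4 (adjusted p = 0.132) and Pycard (adjusted p = 0.0503) did not.

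Glycolysis and hypoxia genes were the list with the most falls: 3 of 20 fell (Tpi1, Pfkl and Bnip3), none rose, and the median log2 was -0.213. Over all genes tested 1.42% fell and 1.89% rose. Pfkl, the liver-type phosphofructokinase, had 32.43, 78.51 and 132.5 normalised reads in mutants and 74.58, 142.7 and 206.1 in controls (log2 -0.84 ± 0.23, adjusted p = 0.0338). Bnip3, a mitochondrial protein of mitophagy induced by hypoxia, had 5.995, 16.72 and 29.26 normalised reads in mutants and 13.68, 28.57 and 43.58 in controls (log2 -0.93 ± 0.22, adjusted p = 0.0152). Tpi1 passed without mutant library 5, and Pfkl and Bnip3 did not (adjusted p = 0.159 and 0.0645). Of 20 genes of the integrated stress and unfolded protein response Eif2ak2 and Trib3 rose, and Trib3 did not pass without mutant library 5 (adjusted p = 0.0999). Eif2ak2, the double-stranded RNA kinase PKR, which is also induced by interferon, had 191.1, 281.6 and 380.7 normalised reads in mutants and 99.57, 164.6 and 253.1 in controls (log2 0.73 ± 0.18, adjusted p = 0.0151). It was called in the 13 libraries alone (adjusted p = 0.0471), and missed the threshold without mutant library 5 (adjusted p = 0.0559) and without controls 1 and 3 (adjusted p = 0.0527).

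Mitochondrial-encoded transcripts make up the mitochondrial share, so that they are low by definition in the libraries of low share. Of 9 tested, mt-Nd1 and mt-Nd2, both subunits of respiratory complex I, were called higher, and the median log2 was 1.30. For mt-Nd1 the mutants had 2348, 3271 and 5467 normalised reads and the controls 95.22, 1963 and 3605, with the lowest control far below all other libraries. The log2 difference of 1.58 (adjusted p = 0.0307) was 0.36 without controls 1 and 3 (adjusted p = 0.498), and mt-Nd2 did not pass there either (adjusted p = 0.487). Without mutant library 5 the adjusted p was 0.0999 for mt-Nd1 and 0.145 for mt-Nd2. No nuclear-encoded subunit of oxidative phosphorylation (37 tested, median log2 -0.0273) and no cytosolic ribosomal protein (33 tested, median log2 0.172) was called. No gene was called among 13 heat shock proteins, 14 NRF2 targets, 16 glucocorticoid-responsive genes, 10 metallothioneins and zinc transporters, 17 cholesterol genes, 17 immediate early genes, 14 prostaglandin and nitric oxide enzymes and 20 cell cycle genes, although Klf9 of the glucocorticoid-responsive list was called in the 13 libraries alone (log2 1.09, adjusted p = 0.0471). The dual-specificity phosphatases had 1 rise and 1 fall among 9, Dusp16 (log2 0.71 ± 0.20, adjusted p = 0.0407) and Dusp7 (log2 -0.86 ± 0.24, adjusted p = 0.0337). Neither passed without mutant library 5 (adjusted p = 0.173 and 0.145 for Dusp16 and Dusp7) or without controls 1 and 3 (adjusted p = 0.0898 and 0.0527).

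Outside these lists, the largest rises among genes of at least 20 normalised reads in 1 group included genes for which mutant library 5 was the highest. Csmd3 had 43.97, 70.22 and 203.6 normalised reads in mutants and 2.005, 36.29 and 63.28 in controls (log2 1.83 ± 0.38, adjusted p = 0.00725), and without controls 1 and 3 the difference was log2 0.86 (adjusted p = 0.0946). Atp8a2, a phospholipid flippase, had 23.41, 27.77 and 99.10 normalised reads in mutants and 2.586, 14.04 and 20.52 in controls, with no overlap (log2 1.5 ± 0.31, adjusted p = 0.00607; adjusted p = 0.0398 without mutant library 5). Gpr132, a G protein-coupled receptor of macrophages, had 15.49, 34.71 and 68.95 normalised reads in mutants and 2.586, 10.38 and 22.05 in controls (log2 1.75 ± 0.46, adjusted p = 0.025; adjusted p = 0.0914 without mutant library 5). Prr5l, a partner of mTOR complex 2, had 37.87, 72.82 and 99.10 normalised reads in mutants and 8.029, 24.10 and 63.28 in controls (log2 1.51 ± 0.35, adjusted p = 0.0117), and was called in the 13 libraries alone but not without mutant library 5 (adjusted p = 0.053). Sycp2, Wdhd1 and AI504432 rose by log2 1.67, 1.61 and 1.64. None of these 3 passed without mutant library 5 (adjusted p = 0.0953, 0.0573 and 0.0514), and without controls 1 and 3 Sycp2 and AI504432 did not pass (log2 1.16 and 0.89, adjusted p = 0.174 and 0.184). Among the genes of lowest p, the kinase Src (log2 1.10 ± 0.22), the adaptor Samsn1 (0.74 ± 0.15) and the adhesion molecule Cadm1 (0.95 ± 0.18) rose, each with an adjusted p of 0.00561, and each passed without mutant library 5 (adjusted p = 0.029) and without controls 1 and 3.

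The largest falls after Il10ra and Ankrd37 were of genes with modest counts. Gatc, a subunit of the mitochondrial glutamyl-tRNA amidotransferase, had 3.604, 17.07 and 30.98 normalised reads in mutants and 27.06, 33.82 and 48.17 in controls (log2 -1.23 ± 0.25, adjusted p = 0.00561). Cpox, an enzyme of haem synthesis, had 0, 7.965 and 10.87 normalised reads in mutants and 15.52, 17.55 and 20.65 in controls, without overlap (log2 -1.56 ± 0.33, adjusted p = 0.00836). Cln8, a protein of the endoplasmic reticulum needed for lysosomal enzyme transport, had at most 6.886 normalised reads in mutants and at least 7.016 in controls (log2 -1.30 ± 0.26, adjusted p = 0.00561). Mapk14, the stress kinase p38 alpha, had 37.84, 50.96 and 99.84 normalised reads in mutants and 66.70, 100.4 and 115.8 in controls (log2 -0.71 ± 0.14, adjusted p = 0.00561). These 4 genes passed without mutant library 5 (adjusted p = 0.029 for each) and without controls 1 and 3. Parp1, a DNA damage sensor, fell by 0.97 on the log2 scale (adjusted p = 0.00957) and stayed just inside the threshold without mutant library 5 (adjusted p = 0.0499). Pigc, Fam72a, Dcun1d2, Mplkip, Snap47 and Cdpf1 fell by 1.10, 1.39, 1.15, 1.13, 1.08 and 1.04 on the log2 scale, and none of these 6 passed without mutant library 5. Dcun1d2 did not pass without controls 1 and 3 either (adjusted p = 0.0718).

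Promoter sequences are shown for 5 of the genes that rose. They were picked because short motifs of the factors downstream of LPS and cytokine receptors stand before their start sites. Icosl and H2-Q4 also had a kappaB match there. No match of the motifs lay in the 250 bases before the start of Stat3, Cish, Il12b, Ccl22, Rela, Tnip2, Tlr13, Tirap, Slamf1 or Tap1. Sequences are from RefSeq on GRCm38.p6, all on the + strand, and the capitals mark the motif. The kappaB consensus, which NF-kB dimers bind, stands in the first 3, from Il6 at chr5:30013045-30013104, Cxcl3 at chr5:90786004-90786063 and Nfkb2 at chr19:46304677-46304736. Counted on either strand, Cxcl3 holds 2 overlapping matches and Nfkb2 holds 3, some of which overlap. The STAT-type palindrome TTCNNNGAA stands in Icam1 at chr9:21015873-21015932, and overlapping matches of the interferon-response motif (GAAA, any 2 bases, GAAA), on the opposite strand, in Gbp3 at chr3:142559980-142560039.
Il6: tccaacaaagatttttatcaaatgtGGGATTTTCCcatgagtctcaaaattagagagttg
Cxcl3: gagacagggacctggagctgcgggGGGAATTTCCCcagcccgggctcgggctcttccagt
Nfkb2: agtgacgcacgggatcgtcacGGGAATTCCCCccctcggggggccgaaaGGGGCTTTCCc
Icam1: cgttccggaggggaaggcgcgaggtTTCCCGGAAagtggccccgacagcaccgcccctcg
Gbp3: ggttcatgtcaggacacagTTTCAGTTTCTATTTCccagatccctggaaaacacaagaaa

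All 5 stretches of 60 bases lie just before the annotated start. Over the window from 250 bases before to 50 bases after the start, on both strands, 8574 of the 11555 genes tested had a promoter in the table. The kappaB consensus was found in 21 of 157 promoters of genes higher in mutants (13.4%) and in 9 of 136 of genes lower in mutants (6.62%), compared with 861 of all 8574. TTCNNNGAA was found in 18 of 157 (11.5%) and 11 of 136 (8.09%), compared with 6.94% of all. The interferon-response motif was found in 5 of 157 (3.18%) and 5 of 136 (3.68%), compared with 3.31% of all. These are counts of letters in a window and were not tested, and a match is not a bound site.

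Next to the libraries without LPS, the question was whether the genotype difference at 6 h exceeded the one at rest. In controls alone, 43.8% of the genes tested were called between 6 h of LPS and no LPS (limma). Between the genotypes without LPS 1 gene was called (0.00865%), Il10ra itself, at log2 -3.25 ± 0.25. The difference of the differences was called for no gene (0.0%; limma, lowest adjusted p 0.1914), with 1184 genes at an unadjusted p under 0.05, and edgeR and DESeq2 on recovered reads also gave 0. No gene's difference at 6 h was thus shown to differ from that at rest. The genes of lowest p in that test included Tlr13, whose mean was 238 ± 52.7 normalised reads in mutants and 252 ± 14.5 in controls without LPS (SD, n = 9 and 6), and Zbtb20, at 73.3 ± 7.65 in mutants and 75.4 ± 8.88 in controls. Their log2 differences without LPS were 0.03 and -0.04, and 0.91 and 0.98 at 6 h. Il6 averaged 10.3 ± 3.50 normalised reads in mutants and 8.44 ± 3.93 in controls without LPS, and Il12b 0.968 ± 1.06 in mutants and 0.922 ± 0.526 in controls. Mutant libraries 7, 8 and 9 without LPS came from Anat_LPSchallenged, an experiment that held no control without LPS. These means and SD are not adjusted for experiment. For Cx3cr1 the log2 difference was -1.05 ± 0.22 without LPS, where it did not pass (adjusted p = 0.0786), and -0.76 ± 0.22 at 6 h, and the change between them was not called (adjusted p = 0.785).

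At 48 h the genotype difference covered many more genes than at 6 h. At 24 h 405 genes were called (3.5%; 1.11% higher and 2.4% lower in mutants) and at 48 h 3227 (27.9%, 1465 higher and 1762 lower). All controls at 48 h came from the experiment labelled AS_3rd_LPS. Mutant libraries 4 and 5 at 48 h were the only ones of AS_DKO_LPS_2ndexp in this fit, so the experiment term absorbs them. Each log2 difference and adjusted p at 48 h thus compares the other mutants with the controls, while the means and SD include all mutants. Of the 218 genes higher in mutants at 6 h, 10 were called higher and 3 lower at 24 h, and of the 164 lower at 6 h, 17 were called lower and 0 higher at 24 h. At 48 h, 53 of the 218 were called higher and 23 lower, against backgrounds of 12.7% and 15.2% of all genes. Of the 164 lower at 6 h, 68 were called lower and 2 higher at 48 h. Il6, Il12b and Ccl22 were called higher at both times. Il12b averaged 249 ± 178 normalised reads in mutants and 7.26 ± 5.91 in controls at 48 h (SD, n = 5 and 6; log2 3.56 ± 0.62, adjusted p = 1.72e-05), Il6 20.1 ± 10.8 in mutants and 1.63 ± 0.863 in controls (log2 2.74 ± 0.50, adjusted p = 4.08e-05), and Ccl22 29.6 ± 19.1 in mutants and a mean of 0.776 in controls (log2 4.23 ± 0.56, adjusted p = 1.39e-07). For Ccl22 the difference at 6 h was smaller than that at 48 h (log2 -2.52, adjusted p = 0.0109), while for Il6 and Il12b the change between the times was not called (adjusted p = 0.223 and 0.0881). Tnf, not called at 6 h, averaged 1580 ± 842 normalised reads in mutants and 201 ± 69.0 in controls at 48 h, and its difference at 6 h was lower than that at 48 h (log2 -2.30, adjusted p = 0.00523).

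Other genes turned round. The difference at 6 h exceeded that at 24 h for 22 genes and was below it for 1 (0.19% and 0.00865%), and it exceeded that at 48 h for 1101 genes and was below it for 764 (9.53% and 6.61%). Zbtb20, higher in mutants at 6 h, averaged 19.7 ± 2.95 normalised reads in mutants and 32.6 ± 5.33 in controls at 24 h (log2 -0.72 ± 0.21, adjusted p = 0.0437), and the change between the times passed the test (log2 1.69, adjusted p = 0.00132). The means at 24 h are not adjusted for experiment, and Anat_LPSchallenged held mutants 3, 4 and 5 but only control 4 there. Atp8a2 averaged 3.78 ± 2.73 normalised reads in mutants and 32.7 ± 7.72 in controls at 48 h (log2 -2.83 ± 0.39, adjusted p = 3.04e-07), against the higher values of mutants at 6 h (change of log2 4.33, adjusted p = 3.98e-08). Tgfbr1, Timp2, Cadm1 and Prr5l showed the same pattern, with log2 differences of -0.81, -0.70, -0.90 and -2.06 at 48 h, all called, and changes between 6 h and 48 h that were called as well. Rab32, Slc25a45, Dolpp1 and Pycard were lower in mutants at both times, with log2 differences of -1.17, -1.47, -1.09 and -1.03 at 48 h (all called). The homeostatic list had a median log2 of 0.179 at 6 h, -0.330 at 24 h and -1.30 at 48 h, with 20 of its 27 genes called lower at 48 h and 1 lower at 6 h.

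**Figure D5:**
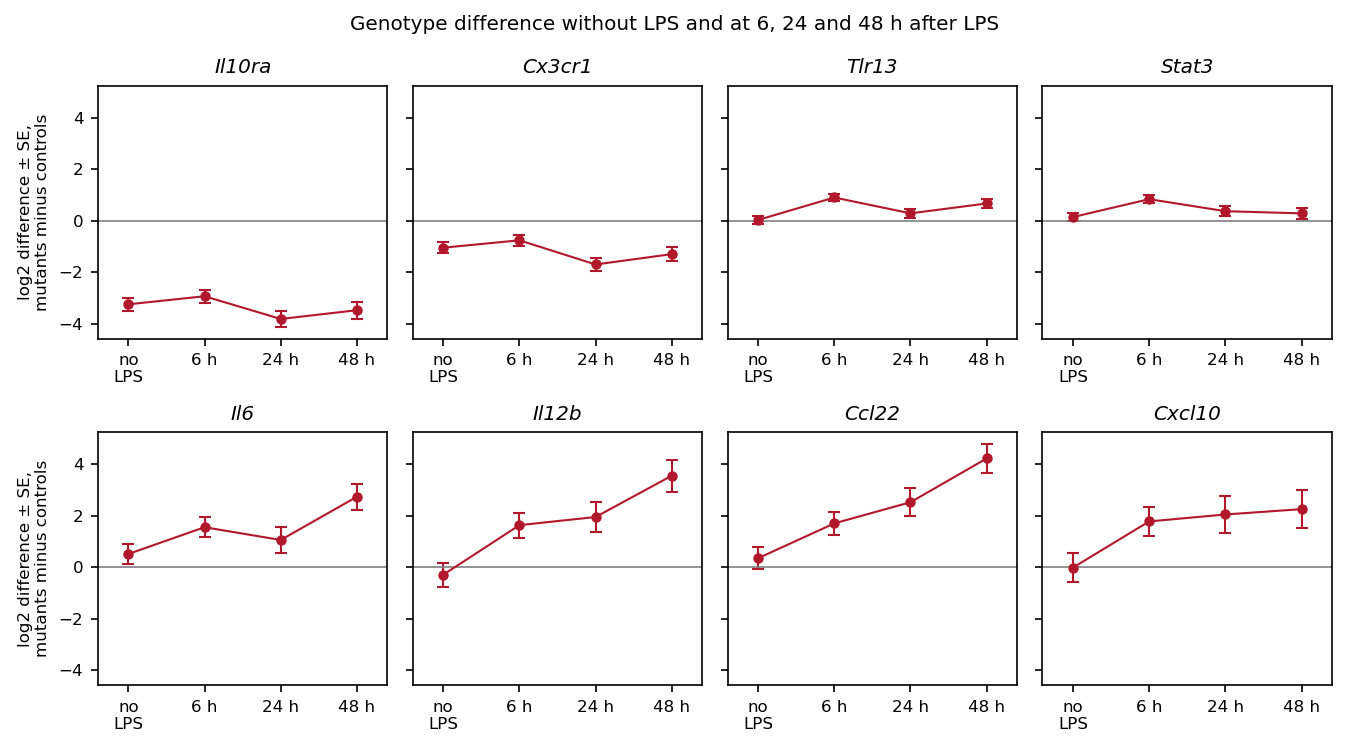
Log2 difference between Il10ra mutants and controls (points, ± SE from limma) without LPS and at 6, 24 and 48 h after LPS for 8 genes. At 48 h the difference rests on the mutants of AS_3rd_LPS alone. Il10ra is below 0 at every time, Tlr13 and Stat3 have their highest difference at 6 h, and Il6, Il12b and Ccl22 have theirs at 48 h.

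The double mutants, which lacked Tnf as well, gave a second comparison at 6 h in other libraries (6 double mutants, 5 doubly floxed controls). In it 11 of 11633 genes were called (0.0946%; 6 higher, 0.0516%, and 5 lower, 0.043%). Il10ra averaged 23.5 ± 8.79 normalised reads in double mutants and 340 ± 87.6 in doubly floxed controls (log2 -3.94 ± 0.27, adjusted p = 2.16e-12), and Tnf 10.9 ± 11.4 in double mutants and 399 ± 162 in doubly floxed controls. Cx3cr1 averaged 866 ± 166 in double mutants and 2400 ± 329 in doubly floxed controls, without the overlap seen in Il10ra mutants (log2 -1.49 ± 0.20, adjusted p = 5.39e-05). Of the 218 genes higher in Il10ra mutants 212 were tested in double mutants and 69 had a positive difference there, and of the 164 lower genes 163 were tested and 77 had a negative one, compared with 48.8% positive over all genes. Tlr13 averaged 228 ± 47.6 normalised reads in double mutants and 274 ± 61.9 in doubly floxed controls (log2 -0.29, adjusted p = 0.361), and Stat3 441 in double mutants and 489 in doubly floxed controls (log2 -0.14 ± 0.14, adjusted p = 0.755). Of the ligands described above, Ccl22 averaged 53.9 ± 16.9 normalised reads in double mutants and 14.4 ± 7.84 in doubly floxed controls (log2 1.92, adjusted p = 0.0944), Il6 58.3 ± 31.3 in double mutants and 22.3 ± 10.2 in doubly floxed controls (log2 1.28, adjusted p = 0.201), and Il12b 164 ± 133 in double mutants and 56.4 ± 18.5 in doubly floxed controls (log2 1.20, adjusted p = 0.236). None of these 3 was called in double mutants, and the difference between the 2 genotype comparisons was not tested, since they come from separately normalised tables. The median log2 difference in double mutants was 0.783 over the chemokines, 0.386 over the cytokines and 0.64 over the interferon response genes. It was 0.199 over the costimulatory and adhesion genes and -0.109 over the NF-kB list, compared with -0.0141 over all genes.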

How the data were processed

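The values were 2 tables deposited by the authors that hold normalised reads per gene and library, used here as signal. The normalisation is stated in the column names, and the build was mm10 per the submitters' processing notes. What the authors aligned and counted with, and their size factors: not given in the sources used here. Whole reads were recovered by dividing a column by its smallest step (100 percent of values whole, tolerance 0.01), and such reads served for depth, edgeR and DESeq2 alone. From the table of Il10ra mutants, 18 gene names turned into dates and 1 row without values were left out, and 12798 genes in 48 libraries remained. From that of double mutants, 18 such names and 6 columns that match no sample used here were left out.

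Groups came from the labels and experiments from the start of the column labels. Values were taken as log2(value + 1), so that a log2 difference understates the change of low genes. A gene was tested if its value was 5 or more in a number of libraries no smaller than that of the smallest group, with limma 3.58.1 (trend, 1 coefficient per group, additive experiment term, R 4.3.3), adjusted by Benjamini-Hochberg and called at an adjusted p under 0.05. The script was tested on simulated data. Single values per library were compared by exact permutation over libraries (scipy 1.17.1). edgeR 4.0.16 and DESeq2 1.42.0, other pseudocounts, filters, normalizations, experiment terms and left-out libraries were alternatives. Fits without mutant library 5 and without the 6 h controls under 0.5% mitochondrial share stand beside the results. Control 1 without LPS (0.1953%) and control 4 at 48 h (0.483%) were also under 0.5% and stayed in these fits.

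Libraries of 1 group were checked for repeats: over 36 pairs a chi-square of genes with at least 20 reads ran from 2.61 to 17.0 per gene. None were therefore treated as copies of 1 library. The check cannot tell libraries of 1 mouse from libraries of separate mice. Named genes were Il10ra and Cx3cr1, the 12 largest rises and falls among called genes with a mean of at least 20 in 1 group and every mutant on 1 side of the control mean, the 10 called genes of lowest p in each direction, the called members of each of 43 gene lists (or its 4 of lowest p), and Tnf, Il10, Stat3 and Socs3. A gene that the rule names is not reported here. Genes with Gm or Rik names and mitochondrial-encoded genes were left out of the rules on size and p. The members and lists were chosen with earlier results of these data known, and Rab32 and Gm12630 were named after their values were seen. Reads of antisense or overlapping genes and of near-identical copies cannot be told apart here.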

Additional observations from a re-analysis of the deposited data

Results flagged for a closer look

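A library far from the rest of its group was looked for in 88 gene and group pairs and in the library measures of the 13 libraries, and 13 were found; chance gives about 1 in 20 groups. Mutant library 5 accounted for 9. It was the highest mutant, far from the others, in Csmd3 (203.6 normalised reads, median of the other mutants 68.67), Sycp2 (64.87, others 24.48), Atp8a2 (99.1, others 26.97), Zbtb20 (81.08, others 50.59), Prune2 (210.8, others 123.3), Cadm1 (236.0, others 88.44), Stat3 (1924, others 637.9) and Baz2b (198.2). It was the lowest in Snap47 (3.604, others 14.91). Its part in these values was not tested beyond the fits without it.

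Control library 5 was high in Cdpf1 (49.14 normalised reads, median of the other controls 20.65) and in the summed erythroid markers (1543, others 187.0). Control library 2 was high in Il10 (1.71, others 0), at the level of about 1 read. Mutant library 1 was high in the summed neutrophil markers (4799, others 751.3).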

How the results depend on the processing

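The 382 genes called at 6 h (3.31% of those tested) were within 1.5 times of that count with other pseudocounts, with no filter or a stricter one, with quantile normalization (277), with DESeq2 (363), without controls 1 and 3 (372) and without the mitochondrial-encoded genes (484). The calls were 253 (2.19%) with edgeR, 186 (1.61%) with no experiment term, 27 (0.28%) in the 2 groups alone, 1.28% with edgeR in the 2 groups alone, 2 (0.0199%) in the 2 groups alone without controls 1 and 3, 1 (0.0103%) within AS_2nd_exp and 7 (0.0711%) within Anat_LPSchallenged. The second edgeR fit and the fit of the 2 groups without controls 1 and 3 were chosen after seeing the data. Leaving out 1 library at a time gave 66 genes (0.574%, without mutant library 5) to 609 (5.28%, without mutant library 7). In between, the calls were 600 without control 2, 1.26%, 1.84% and 1.98% of genes without controls 4, 5 and 6, and 210 and 254 without mutants 1 and 6. Higher genes were 57.1% of the calls, 44.8% with quantile normalization, 66.8% with edgeR and 26.2% without the mitochondrial-encoded genes, where the median of all genes moved by log2 -0.106. That last fit also rescaled every library to an equal total in place of the deposited normalisation. No named called gene changed sign under these settings. Mutants and controls of the same number were not paired by the data (6 pairs, correlations of deviations -0.313 to 0.156), and a replicate block on the numbers gave 2 calls (0.0207%) at 6 h and 4 (0.0407%) in double mutants.

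The test against the difference without LPS gave 0 calls, and 1 (0.00868%) without control replicate 2. For double mutants the 11 calls (0.0946%) were 18 (0.155%) with a pseudocount of 5, 7 (0.0602%) with quantile normalization, 26 (0.224%) with edgeR, 139 (1.19%) with DESeq2 and 5 (0.043%) with no experiment term. Leaving out 1 library gave from 0.0344% (without control 1) to 0.967% (without double mutant 3), with 33 calls without double mutant 4 and 6, 7, 5 and 6 calls without double mutants 1, 2, 5 and 6.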

Other observations

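Several lists had few or no calls at 6 h. Among 10 metallothioneins and zinc transporters 9 differences were positive (median log2 0.33) and among 12 TGF-beta receptors and SMADs 11 (median log2 0.344), with 0 and 1 called. Over all genes tested 6059 of 11555 differences were positive. Glucocorticoid-responsive genes had a median log2 difference of 0.188 at 6 h, with 0 of 16 called, and 2.01 at 48 h, with 12 called higher. Cell cycle genes had a median of 0.0659 at 6 h, with 0 of 20 called, and -1.61 at 48 h, with 15 called lower.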
